A study of Mus musculus with 6 samples.

Results

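The genes of cholesterol and fatty acid synthesis were compared between Tyr-H and Tyr-L cells, which are subclones of the mouse melanoma line B16 (C57BL/6) labelled as having high and low tyrosinase activity. The 35 genes were the symbols on a list of sterol regulators, sterol pathway enzymes and fatty acid enzymes, taken by exact match from 20788 genes with a value in at least 1 library. The list was drawn up with earlier results of these data known. RNA had been sequenced as 3 libraries of Tyr-L cells and 3 of Tyr-H cells, both grown in low glucose DMEM with serum and antibiotics, and the labels name no agent or engineered allele. The subclones had been picked as single colonies from cells plated at low density, and neither the labels nor the methods say how many subclones, or how many separate cultures, the 3 libraries of a group came from. Differences between the groups can therefore be differences between clones of 1 line, and the p-values below measure the spread between these libraries, which may be technical.

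Cells make cholesterol from acetyl-CoA through mevalonate, isoprenoid diphosphates, squalene and lanosterol, and they make fatty acids from acetyl-CoA through malonyl-CoA and palmitate, which desaturases and elongases then modify. Both branches are transcribed under the sterol regulatory element-binding proteins (SREBPs), which the escort protein SCAP carries from the endoplasmic reticulum for cleavage when sterols are scarce and which INSIG proteins hold back when sterols are plentiful. Melanocytes and melanoma cells need these lipids for their membranes, including those of melanosomes, the organelles in which tyrosinase makes melanin.

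Values were deposited as FPKM, fragments counted per length of transcript and per depth of library, so levels can be compared between genes per unit of length. The depth of the libraries is unknown, and no number of fragments is given for a gene. Over the 35 genes, a pair of libraries of the same group had a median absolute log2 difference of 0.0453 to 0.0941, and a pair from different groups one of 0.150 to 0.262. *Tyr*, which encodes tyrosinase, was at 10.7, 9.52 and 9.80 FPKM in Tyr-L and at 23.8, 20.6 and 19.7 FPKM in Tyr-H, so its level followed the labels. All 7 melanocyte markers examined were present, with a summed level of 7343 to 7660 FPKM in Tyr-L but of 5438 to 5958 FPKM in Tyr-H, and the 6 other than *Tyr* fell in Tyr-H, by a log2 fold change of -1.85 for *Mitf* and of -0.73 to -0.23 for the rest. After median ratio scaling *Tyrp1* (log2 fold change -0.08, adjusted p = 0.232) and *Mlana* (-0.09, adjusted p = 0.0620) did not pass. Whether this has a part in the results below was not tested. The markers of leukocytes (5 of 7 had no value in any table used here and were taken as 0), fibroblasts, endothelium, epithelium and adipocytes summed to at most 1.19 FPKM per list in any library. As these are bulk libraries, a lower level in a fraction of the cells and a lower level in every cell cannot be told apart.

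Most of the 35 genes were somewhat lower in Tyr-H than in Tyr-L on the deposited scale, with fewer past the test under 2 other scalings, and 1 was lower by more than 2-fold. On log2(FPKM + 0.1), limma with Benjamini-Hochberg adjustment over the 14336 genes whose mean reached 0.1 FPKM tested all 35. A gene is said here to have risen or fallen when its adjusted p was at most 0.05, and to have been called when it also differed by 2-fold or more. None of the 35 was called higher in Tyr-H, where 2.96% of all tested genes were, and 1 was called lower (*Elovl6*), where 5.78% were. By the adjusted p alone, 3 rose (*Fads1*, *Fdft1*, *Elovl1*) against 17.9% of all tested genes, 22 fell against 39.9%, and 10 did not pass. The FPKM ranges of the groups did not overlap for 3 genes higher in Tyr-H and 20 lower, where 20.2% and 43.8% of all tested genes did so, and they overlapped for the other 12.

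The whole transcriptome was itself shifted on the deposited scale, where the median over all tested genes was a log2 fold change of -0.15, with quartiles of -0.46 and 0.14. The median of the 35 genes was -0.18, their range -1.27 to 0.34, and 20 of the 35 lay below the median of all genes. Of all tested genes that passed, 31.0% were higher in Tyr-H on the deposited scale. That share was 50.8% when libraries were scaled by median ratios, 48.3% with quantile normalization and 21.5% after rescaling each library to the same total, so the directions are given with these scalings further on.

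**Figure D1:**
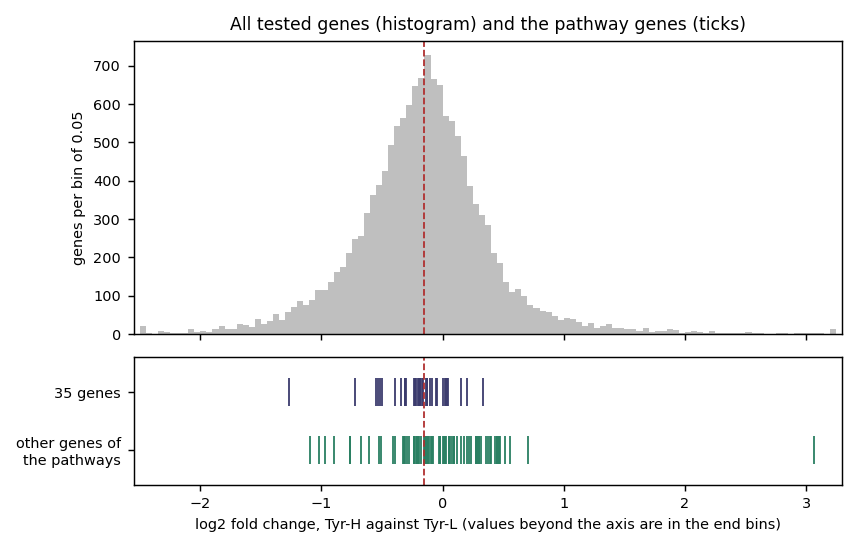
Histogram of the log2 fold change (Tyr-H against Tyr-L, on log2(FPKM + 0.1)) of the 14336 tested genes, with a dashed line at their median of -0.15, above ticks for the 35 genes and for 74 other tested genes of the same pathways. Most ticks of the 35 genes lie within the bulk of the histogram, and *Elovl6* at -1.27 lies apart on the left.

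The genes with the largest decreases belonged to different steps: *Elovl6* in fatty acid elongation (log2 fold change -1.27), *Hmgcs1* at the entry to the mevalonate pathway (-0.72), *Hsd17b7* in late sterol synthesis (-0.55), *Insig1* among the regulators (-0.54) and *Idi1* in isoprenoid synthesis (-0.52). The sequences before the annotated starts of the first 4, and of *Fasn*, which did not pass, are shown because SREBPs and their partner factors can act in such regions. They are from RefSeq (GRCm38.p6), run 5′ to 3′ in the direction of transcription, begin 250 bases before the RefSeq start and stop before the first base that GENCODE M21 places in an exon of the gene. Capitals mark matches on either strand to a sterol regulatory element (TCACNCCAC), a shorter core of it (CACCCCAC), a CCAAT box (CCAAT, or ATTGG where it reads on the opposite strand), a GC box (GGGCGG, or CCGCCC on the opposite strand) and an E-box (CACGTG).
Hmgcs1, chr13:119690101-119690350, plus strand: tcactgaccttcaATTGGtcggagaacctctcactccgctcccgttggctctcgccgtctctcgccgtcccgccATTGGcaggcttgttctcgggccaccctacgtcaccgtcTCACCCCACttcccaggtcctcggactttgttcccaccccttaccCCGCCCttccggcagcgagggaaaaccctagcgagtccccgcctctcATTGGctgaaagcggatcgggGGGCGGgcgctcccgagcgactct
Insig1, chr5:28071162-28071362, plus strand: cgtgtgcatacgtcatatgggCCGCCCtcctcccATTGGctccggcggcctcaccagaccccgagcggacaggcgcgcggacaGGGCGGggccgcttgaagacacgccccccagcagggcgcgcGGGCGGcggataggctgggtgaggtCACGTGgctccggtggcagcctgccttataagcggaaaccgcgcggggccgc
Hsd17b7, chr1:169969242-169969455, minus strand: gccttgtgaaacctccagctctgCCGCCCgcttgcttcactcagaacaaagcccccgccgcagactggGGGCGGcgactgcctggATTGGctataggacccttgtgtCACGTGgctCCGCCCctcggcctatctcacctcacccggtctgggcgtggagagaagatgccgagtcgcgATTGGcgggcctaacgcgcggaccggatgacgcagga
Elovl6, chr3:129532136-129532354, plus strand: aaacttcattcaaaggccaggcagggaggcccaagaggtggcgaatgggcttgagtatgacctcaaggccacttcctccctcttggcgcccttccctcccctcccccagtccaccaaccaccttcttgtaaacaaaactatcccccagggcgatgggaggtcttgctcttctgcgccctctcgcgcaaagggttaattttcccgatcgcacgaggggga
Fasn, chr11:120824548-120824797, minus strand: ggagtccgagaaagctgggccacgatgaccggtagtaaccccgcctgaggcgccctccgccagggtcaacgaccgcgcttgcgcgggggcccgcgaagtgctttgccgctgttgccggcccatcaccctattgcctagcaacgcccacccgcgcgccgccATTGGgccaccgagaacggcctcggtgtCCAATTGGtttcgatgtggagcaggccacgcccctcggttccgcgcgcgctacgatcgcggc

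*Hmgcs1* was the 1 gene of the 28 with a RefSeq window (250 bases before to 50 after the start) that held the sterol regulatory element as spelled, beginning 137 bases before the start. The core, whose letters overlap that match by design, was found there alone too. These shares were 3.57% of the 28 genes in both cases, beside 1.40% and 3.80% of the 9849 tested genes with a window. At least 1 window held a CCAAT box in 24 of the 28 genes (85.7%), beside 43.3% of these tested genes, a GC box in 23 (82.1%), beside 69.1%, and an E-box in 6 (21.4%), beside 11.8%. Some genes have several windows, and counted by window the 28 genes had 38, of which 2.63%, 2.63%, 65.8%, 73.7% and 18.4% held the motifs in the order above. Over all 32851 windows in the table these shares were 1.24%, 2.87%, 37.4%, 35.7% and 7.15%. The 3 sequences of *Hmgcs1*, *Insig1* and *Hsd17b7* hold CCAAT and GC boxes together, that of *Fasn* holds 3 CCAAT boxes of which 2 share letters, and that of *Elovl6*, the gene that fell most, holds none of the 5 motifs. The whole windows of *Elovl6* and *Acaca* held none either. A match describes letters in a window and shows neither binding nor its absence. *Fads1*, *Fdps*, *Sqle*, *Stard4*, *Fdft1*, *Scd1* and *Scd2* had no window in the table.

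**Figure D2:**
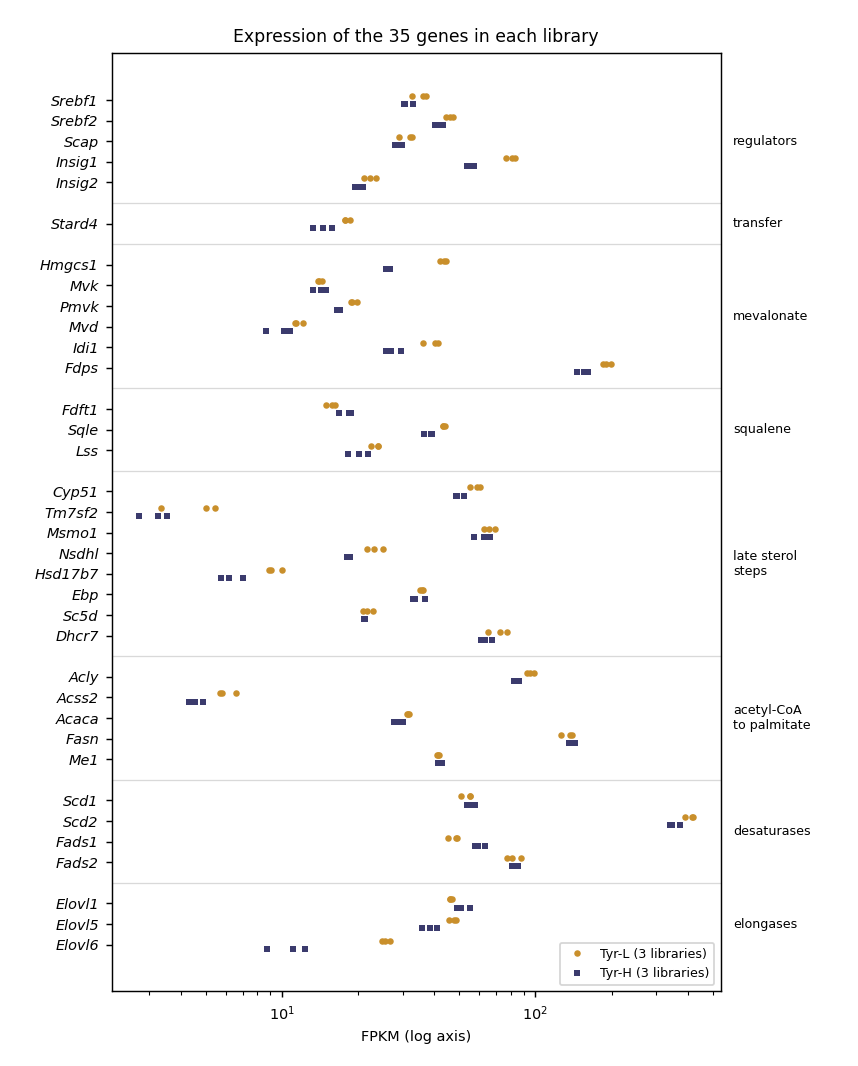
FPKM of each of the 35 genes on a log axis, with the 3 Tyr-L libraries as circles and the 3 Tyr-H libraries as squares, grouped by role. The points of the groups separate widely for *Elovl6*, *Hmgcs1*, *Insig1*, *Idi1* and *Hsd17b7*, and lie on each other for *Mvk*, *Fasn*, *Me1*, *Scd1* and *Fads2*.

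Among the 5 regulators, *Insig1* fell and the others moved little. *Insig1*, which encodes a protein that retains SCAP in the endoplasmic reticulum and whose own transcription is driven by SREBPs, was at 76.3, 81.1 and 83.4 FPKM in Tyr-L and at 55.0, 57.2 and 53.6 FPKM in Tyr-H. Every Tyr-H value was below every Tyr-L value, and the mean in Tyr-H was 68.8% of that in Tyr-L (log2 fold change -0.54, SE 0.04, limma adjusted p = 7.92e-06). *Insig2*, its paralog, was at 23.4, 22.2 and 21.04 FPKM in Tyr-L and at 20.6, 19.4 and 20.8 FPKM in Tyr-H. Its groups did not overlap, but the difference did not pass (log2 fold change -0.13, SE 0.05, limma adjusted p = 0.0546). The ratio of *Insig1* to *Insig2* within a library was 3.62 ± 0.354 (SD, n = 3) in Tyr-L and 2.73 ± 0.195 in Tyr-H, without overlap.

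The SREBP genes and *Scap* differed by less. *Srebf2*, which encodes the SREBP that acts mainly on sterol genes, was at 44.4, 47.3 and 45.9 FPKM in Tyr-L and at 41.6, 43.1 and 40.3 FPKM in Tyr-H. It fell by a small amount with no overlap (log2 fold change -0.14, SE 0.04, limma adjusted p = 0.0158), but its sign turned with median ratio scaling (0.01). *Srebf1*, whose product acts mainly on fatty acid genes, was at 32.5, 37.0 and 36.2 FPKM in Tyr-L and at 30.7, 32.8 and 30.4 FPKM in Tyr-H. The Tyr-H library 2 lay just above the Tyr-L library 1, and the difference passed (log2 fold change -0.17, SE 0.05, limma adjusted p = 0.0254), but the adjusted p exceeded 0.05 when any 1 of 4 libraries was left out, reaching 0.0909 without Tyr-L library 2. For *Srebf2* it was 0.0578 without Tyr-L library 2 and 0.0506 without Tyr-H library 3. *Scap* was at 28.9, 32.1 and 32.5 FPKM in Tyr-L and at 29.8, 28.0 and 29.0 FPKM in Tyr-H, which overlapped, and did not pass (log2 fold change -0.10, SE 0.05, limma adjusted p = 0.114). The ratio of *Srebf1* to *Srebf2* overlapped between the groups, at 0.768 ± 0.0307 in Tyr-L and 0.751 ± 0.0114 in Tyr-H (n = 3 each, exact permutation p = 0.5, two-sided). *Stard4*, which encodes a sterol carrier between membranes and is itself transcribed under SREBPs, fell from 17.7 to 18.6 FPKM in Tyr-L to 13.3 to 15.7 FPKM in Tyr-H (log2 fold change -0.31, SE 0.06).

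In the mevalonate and isoprenoid steps, 5 of 6 genes fell, with a median log2 fold change of -0.28. Of all tested genes 39.9% fell and 17.9% rose. With median ratio scaling and with quantile normalization 3 of the 6 fell and 1 rose, where 27% and 27.8% of all tested genes fell. *Hmgcs1* (ENSMUSG00000093930, chromosome 13, 119690379 to 119708260, plus strand), which encodes the cytosolic synthase that makes HMG-CoA, was at 43.6, 41.9 and 44.4 FPKM in Tyr-L and at 26.3, 26.7 and 25.7 FPKM in Tyr-H. The 3 libraries of each group lay within a narrow band and far from the other group, and Tyr-H stood at 60.6% of Tyr-L (log2 fold change -0.72, SE 0.04, limma adjusted p = 9.38e-07). A lower value was found for 12.9% of all tested genes, so a decrease of this size was not rare in these libraries. The antisense gene *Gm48342*, which covers 12.1% of the exonic bases of *Hmgcs1*, had no value in the 6 tables used here.

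Further along the same branch, *Idi1*, whose product isomerizes isopentenyl diphosphate, stood at 39.2 ± 2.70 FPKM in Tyr-L and at 27.3 ± 1.91 in Tyr-H (SD, n = 3; log2 fold change -0.52). The groups did not overlap, but 33.3% of the longest *Idi1* transcript is near identical to the loci *Gm13502* and *Gm48574*, so reads may have been divided. *Gm13502* itself was at 3.70 FPKM in Tyr-L and at 2.39 FPKM in Tyr-H. *Fdps*, which encodes farnesyl diphosphate synthase, was the most abundant gene of the sterol branch, with 191 ± 7.49 FPKM in Tyr-L against 154 ± 7.58 in Tyr-H (log2 fold change -0.31). Of its transcript, 91.4% is near identical to 2 other loci, *Gm3571* and *Gm43738*, neither of which exceeded 0.664 FPKM in any library. The decarboxylase gene *Mvd* (log2 fold change -0.24) and the kinase gene *Pmvk* (-0.19) fell without overlap, but *Mvd* did not pass when any 1 of 4 libraries was left out (adjusted p up to 0.108, without Tyr-L library 3). *Mvk*, the kinase gene of the step before *Pmvk*, did not pass, at 14.1 ± 0.234 FPKM in Tyr-L and at 14.1 ± 0.812 in Tyr-H (log2 fold change 0.00, SE 0.05). Summed over the 6 genes, the level was 313 to 323 FPKM in Tyr-L but 237 to 254 FPKM in Tyr-H.

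Squalene synthesis and cyclization showed both directions on the deposited scale, where 1 of the 3 genes rose and 2 fell, beside 17.9% and 39.9% of all tested genes. With median ratio scaling and with quantile normalization 1 of the 3 rose and 0 fell, since *Sqle* and *Lss* did not pass. Of all tested genes 27.9% and 26% rose with these scalings, and 27% and 27.8% fell. *Sqle*, which encodes the epoxidase that commits squalene to sterols, fell from 43.0 to 43.9 FPKM in Tyr-L to 36.4 to 39.2 FPKM in Tyr-H (log2 fold change -0.18, SE 0.04). *Lss*, the lanosterol synthase gene, fell from 23.5 ± 0.844 to 20.0 ± 1.78 FPKM (log2 fold change -0.23). *Fdft1*, the squalene synthase gene between *Fdps* and *Sqle*, rose from 15.6 ± 0.674 to 18.0 ± 1.04 FPKM with no overlap (log2 fold change 0.20, SE 0.06, limma adjusted p = 0.014). Its exons overlap those of *Ctsb* on the opposite strand over 774 bases, 18.3% of the exonic bases of *Fdft1*. *Ctsb*, a cathepsin gene, was at 129 FPKM in Tyr-L and at 201 FPKM in Tyr-H (log2 fold change 0.64), and without a stated strand setting reads from the pair cannot be told apart. The part of *Ctsb* in the difference of *Fdft1* was not tested, and *Fdft1* did not pass without Tyr-L library 1 (adjusted p = 0.0521) or Tyr-H library 2 (adjusted p = 0.0538).

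*Hmgcs1* and *Sqle*, from the entry and the middle of the pathway, stood at nearly the same level in Tyr-L and apart in Tyr-H. Their ratio within a library was 1.01, 0.974 and 1.01 in Tyr-L and 0.721, 0.680 and 0.664 in Tyr-H. A ratio within a library does not change when each library is multiplied by 1 factor, and this one did not overlap between the groups (log2 difference -0.54, SE 0.04). The exact permutation test of 3 libraries against 3 gave p = 0.1, two-sided, the smallest value it can give. This and the other ratios were picked after the values were seen.

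The 8 late sterol genes, which turn lanosterol into cholesterol, were all lower in Tyr-H on the deposited scale, with a median log2 fold change of -0.19. Of all tested genes 64.5% had a lower value than *Mvk*, whose log2 fold change was 0.00, and the median was -0.15. Past the test 5 of the 8 fell, where 39.9% of all tested genes did. *Msmo1*, *Ebp* and *Sc5d* had a positive sign with median ratio scaling. Under that scaling 2 of the 8 fell, against 3 with quantile normalization, where 27% and 27.8% of all tested genes fell. *Hsd17b7* and *Nsdhl* encode enzymes of the same demethylation step and fell most clearly. *Hsd17b7* was at 9.31 ± 0.603 FPKM in Tyr-L and at 6.33 ± 0.641 in Tyr-H (log2 fold change -0.55, SE 0.08, limma adjusted p = 0.000429). *Nsdhl* was at 23.3 ± 1.72 FPKM in Tyr-L and at 18.3 ± 0.286 in Tyr-H (log2 fold change -0.34, SE 0.06, limma adjusted p = 0.000632). *Msmo1*, which encodes the oxygenase of that step, overlapped between the groups at 65.9 ± 3.25 and 62.1 ± 4.79 FPKM and did not pass.

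Of the remaining late genes, *Cyp51*, the lanosterol demethylase gene, fell without overlap from 58.1 ± 2.67 to 49.9 ± 1.88 FPKM (log2 fold change -0.22). *Dhcr7*, a reductase gene of the end of the pathway, fell from 71.7 ± 6.03 to 63.9 ± 3.24 FPKM with overlapping groups (log2 fold change -0.16), and did not pass when any 1 of 4 libraries was left out (adjusted p up to 0.157, without Tyr-L library 2). *Tm7sf2*, a sterol reductase gene, was the lowest of the 35, at 3.33, 5.01 and 5.44 FPKM in Tyr-L and at 3.25, 2.74 and 3.51 FPKM in Tyr-H. The Tyr-L library 1 lay among the Tyr-H libraries, and although the gene passed (log2 fold change -0.50, SE 0.17) it did not when any 1 of 4 libraries was left out (adjusted p up to 0.126, without Tyr-L library 3). It also shares 12.1% of its exonic bases with *Vps51* on the same strand, which was at 12.3 FPKM in Tyr-L and at 15.2 FPKM in Tyr-H. *Ebp* (log2 fold change -0.06) and *Sc5d* (-0.04), an isomerase and a desaturase gene, overlapped and did not pass. Over the mevalonate, squalene and late genes together, 12 of 17 fell, 1 rose and 4 did not pass, where 39.9% of all tested genes fell and 17.9% rose. After median ratio scaling 5 of the 17 fell and 2 rose, where 27% and 27.9% of all tested genes did. Their summed level was 672 to 708 FPKM in Tyr-L but 557 to 602 FPKM in Tyr-H.

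**Figure D3:**
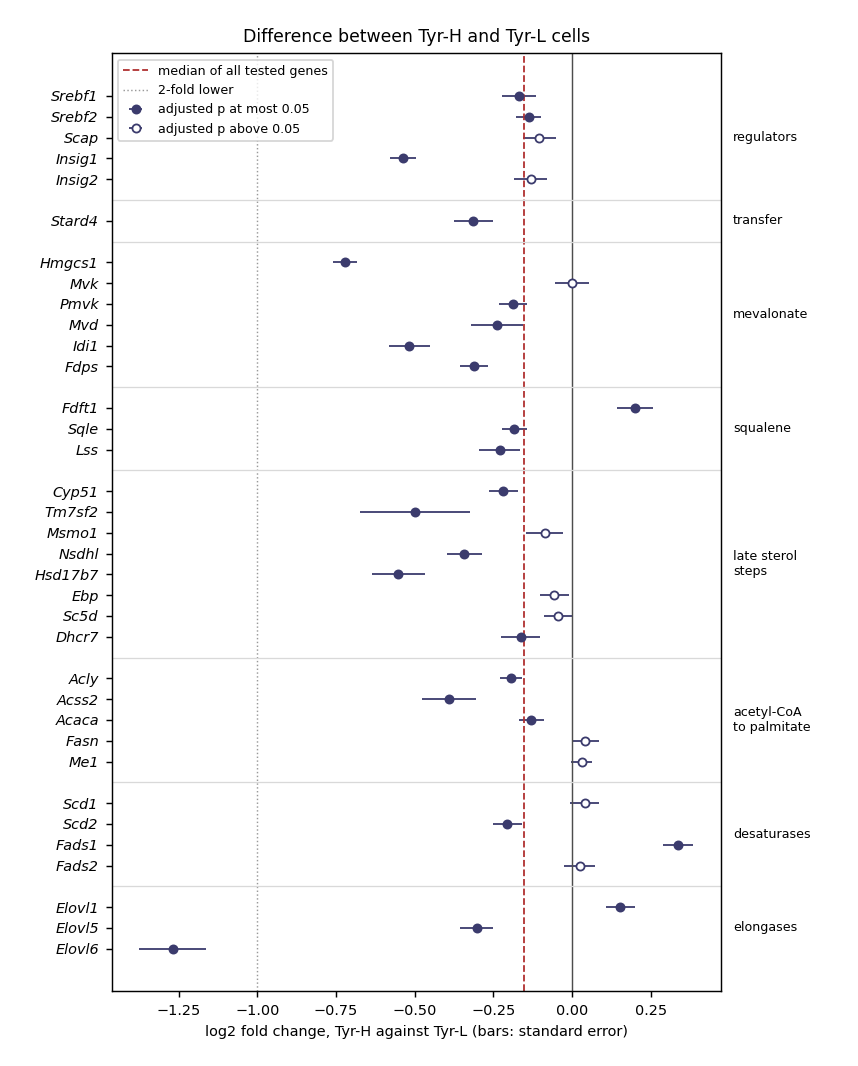
Log2 fold change of each of the 35 genes (Tyr-H against Tyr-L, on log2(FPKM + 0.1)) with its standard error from limma, grouped by role, filled where the adjusted p was at most 0.05. The dashed line is the median of all tested genes at -0.15, the dotted line marks 2-fold lower, and *Elovl6* alone lies beyond it.

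Of the genes that supply acetyl-CoA and build palmitate, 3 of 5 fell and 2 did not pass on the deposited scale, where 39.9% of all tested genes fell. Their median log2 fold change was -0.13, beside -0.15 over all tested genes. With median ratio scaling 2 of the 5 rose and 1 fell, where 27.9% and 27% of all tested genes did. With quantile normalization 1 rose and 1 fell, where 26% and 27.8% did. *Acss2*, which encodes the synthetase that makes acetyl-CoA from acetate, fell from 6.05 ± 0.480 to 4.58 ± 0.294 FPKM (log2 fold change -0.39, SE 0.09). It shares 1.94% of its exonic bases with *Ggt7* and 3.89% with *Gss*, both on the opposite strand. *Ggt7* was at 25.3 FPKM in Tyr-L and at 18.9 FPKM in Tyr-H (log2 fold change -0.42), and *Gss* at 13.7 and 13.3 FPKM. The part of these genes in the difference of *Acss2* was not tested. *Acly*, whose product makes acetyl-CoA from citrate, was far more abundant than *Acss2* and fell from 95.5 ± 2.98 to 83.5 ± 2.11 FPKM (log2 fold change -0.19, SE 0.04). *Acaca*, the acetyl-CoA carboxylase gene, fell from 31.5 ± 0.231 to 28.8 ± 1.12 FPKM (log2 fold change -0.13, SE 0.04), but it did not pass when any 1 of 4 libraries was left out (adjusted p up to 0.0708, without Tyr-H library 1), and its sign turned with median ratio scaling (0.02).

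*Fasn*, the fatty acid synthase gene, was one of the most abundant of the 35 and stood at 134 ± 6.67 FPKM in Tyr-L and at 138 ± 4.22 in Tyr-H (log2 fold change 0.04, SE 0.04, limma adjusted p = 0.425). *Me1*, the malic enzyme gene that supplies NADPH, stood at 41.3 ± 0.304 and 42.2 ± 0.714 FPKM (log2 fold change 0.03, SE 0.03). Both overlapped between the groups. For *Acaca* and *Me1*, 64.3% and 60.1% of the longest transcript is near identical to pseudogene loci, none of which exceeded 0.616 FPKM in any library.

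On the deposited scale 1 of the 4 desaturases rose and 1 fell, where 17.9% and 39.9% of all tested genes did. With median ratio scaling 3 rose (*Fads1*, *Scd1* and *Fads2*) and 0 fell, with a median log2 fold change of 0.19. Of all tested genes 27.9% rose and 27% fell with that scaling. With quantile normalization 1 rose and 1 fell, where 26% and 27.8% of all tested genes did. *Scd2*, which encodes a stearoyl-CoA desaturase, had the highest level of the 35 genes, at 387, 419 and 414 FPKM in Tyr-L and at 339, 374 and 346 FPKM in Tyr-H, and fell with no overlap (log2 fold change -0.21, SE 0.05, limma adjusted p = 0.00411). Its paralog *Scd1*, with which it shares no near-identical stretch of 100 bases, stood at 53.8 ± 2.69 and 55.3 ± 2.03 FPKM and did not pass (log2 fold change 0.04, SE 0.05). The ratio of *Scd2* to *Scd1* was 7.48 to 7.64 in the Tyr-L libraries and 6.31 to 6.49 in the Tyr-H libraries.

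*Fads1* was the 1 gene of the 35 that rose under each scaling tried. It encodes a front-end desaturase of polyunsaturated fatty acids and was at 45.1, 49.0 and 48.7 FPKM in Tyr-L and at 57.6, 63.4 and 59.3 FPKM in Tyr-H. All Tyr-H values were above all Tyr-L values (log2 fold change 0.34, SE 0.05, limma adjusted p = 0.000276), and 14.2% of all tested genes had a higher value. *Fads2*, which lies near it on chromosome 19 and encodes the desaturase that acts before it, overlapped at 82.0 ± 5.33 and 83.3 ± 2.38 FPKM (log2 fold change 0.02, SE 0.05). The ratio of *Fads1* to *Fads2* was 0.558 to 0.601 in the Tyr-L libraries and 0.712 to 0.740 in the Tyr-H libraries, with no overlap.

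The 3 elongases gave 3 different results. *Elovl6* (ENSMUSG00000041220, chromosome 3, 129532355 to 129638495, plus strand), which encodes the elongase that turns palmitate into stearate, was at 26.7, 24.7 and 25.6 FPKM in Tyr-L and at 11.0, 12.3 and 8.74 FPKM in Tyr-H. Every Tyr-H library lay far below every Tyr-L library, and the mean in Tyr-H was 41.7% of that in Tyr-L (log2 fold change -1.27, SE 0.11, limma adjusted p = 1.07e-05). A lower value was found for 2.98% of all tested genes. When 1 library was left out, the log2 fold change ranged from -1.38 to -1.13, and after median ratio scaling and quantile normalization it was -1.12 and -1.13. An antisense gene, *Gm35986*, covers 0.529% of its exonic bases and stayed at or below 0.109 FPKM.

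*Elovl5*, which acts on polyunsaturated fatty acids, fell from 47.4 ± 1.72 to 38.4 ± 2.50 FPKM without overlap (log2 fold change -0.30, SE 0.05, limma adjusted p = 0.000837). *Elovl1*, which acts on very long saturated chains, rose from 46.5 ± 0.511 to 51.8 ± 3.01 FPKM without overlap (log2 fold change 0.15, SE 0.04, limma adjusted p = 0.0155). Its last bases overlap *Cdc20* on the opposite strand over 1.94% of its exonic bases, and *Cdc20* moved the other way, from 58.8 to 43.1 FPKM. *Elovl6* and *Fasn*, which act one after the other on palmitate, diverged: the ratio of *Elovl6* to *Fasn* was 0.211, 0.177 and 0.188 in Tyr-L and 0.0810, 0.0863 and 0.0646 in Tyr-H. The ratio of *Elovl5* to *Elovl6*, elongases with different substrates, was 1.70, 1.97 and 1.87 in Tyr-L and 3.71, 3.13 and 4.10 in Tyr-H, also without overlap.

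**Figure D4:**
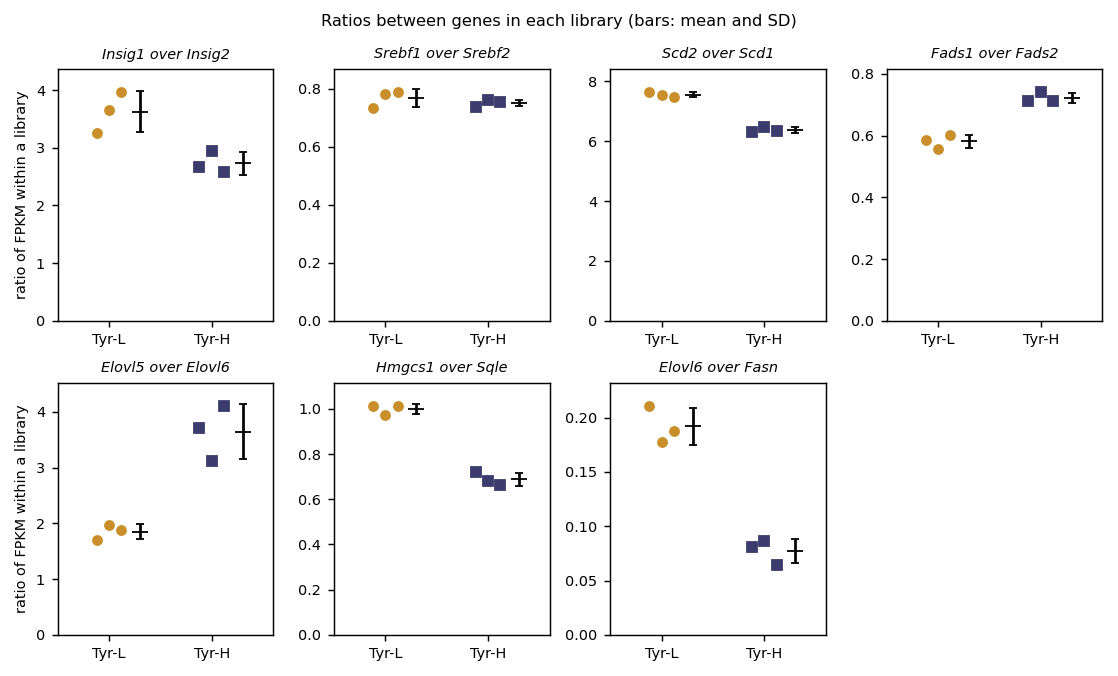
Ratio of the FPKM of 2 genes within each library, with the mean and SD of the 3 libraries of a group beside the points and axes that start at 0. The groups overlap in *Srebf1* over *Srebf2* and do not in the other 6 ratios, of which *Fads1* over *Fads2* and *Elovl5* over *Elovl6* are higher in Tyr-H and 4 are lower.

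Over the 12 fatty acid genes, 2 rose, 6 fell and 4 did not pass, with a median log2 fold change of -0.05, beside -0.22 over the 17 sterol genes and -0.15 over all tested genes. Of all tested genes 17.9% rose and 39.9% fell. With median ratio scaling 6 of the 12 rose, 3 fell and the median turned to 0.10, where 27.9% and 27% of all tested genes rose and fell. With quantile normalization 3 rose, 4 fell and the median was 0.02, where 26% and 27.8% did. The 17 sterol genes had 2 rising and 5 falling with the former (median -0.06), and 2 and 6 with the latter (-0.09). The difference between the medians of the branches was not tested. Their summed level, of which *Scd2* made up the largest share, was 977 to 1047 FPKM in Tyr-L against 927 to 985 FPKM in Tyr-H, so the groups overlapped, whereas the summed level of the 17 sterol genes did not.

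How many of the 35 rose or fell depended on the scaling of the libraries. On the deposited scale 3 rose and 22 fell, with median ratio scaling 8 rose and 9 fell, and with quantile normalization 5 rose and 12 fell. Rescaling to the same total gave 1 that rose and 27 that fell. Over all tested genes the shares that rose and fell were 27.9% and 27% with median ratio scaling, 26% and 27.8% with quantile normalization and 12% and 44% after rescaling to the same total. The sign of the fold change was the same under all of these scalings for 23 genes. *Insig1*, *Hmgcs1*, *Idi1*, *Fdps*, *Nsdhl*, *Hsd17b7*, *Elovl5* and *Elovl6* fell under each of them, and *Fads1* rose under each. The shares of all tested genes that kept their sign, fell or rose under every scaling are not given here. These counts therefore cannot be read as particular to the 35 genes. After median ratio scaling *Fasn* (log2 fold change 0.20), *Me1* (0.18), *Scd1* (0.19), *Fads2* (0.18) and *Mvk* (0.15) also rose, none of which passed on the deposited scale. Of the 22 that fell on the deposited scale, 13 did not pass after it, with log2 fold changes from -0.35 to 0.02: *Srebf1*, *Srebf2*, *Stard4*, *Pmvk*, *Mvd*, *Sqle*, *Lss*, *Cyp51*, *Tm7sf2*, *Dhcr7*, *Acly*, *Acaca* and *Scd2*.

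**Figure D5:**
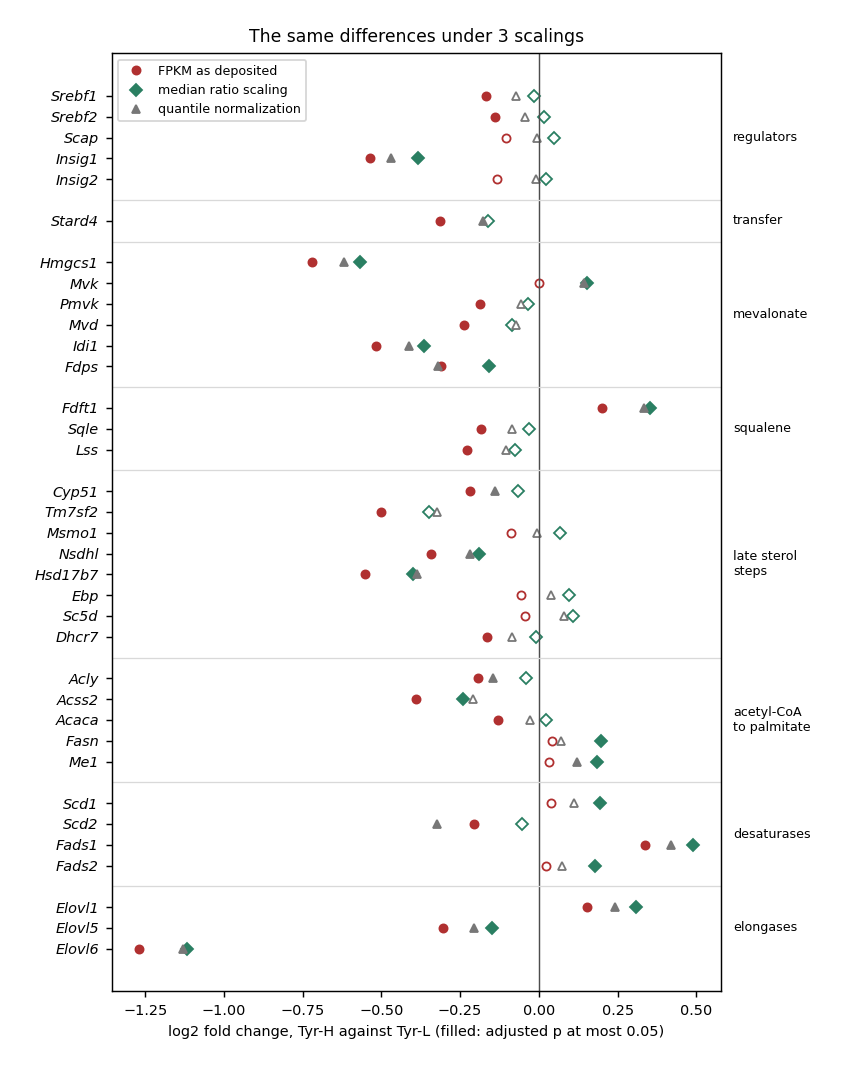
Log2 fold change of each of the 35 genes (Tyr-H against Tyr-L) on the deposited FPKM (circles), after median ratio scaling (diamonds) and after quantile normalization (triangles), filled where the adjusted p was at most 0.05. *Elovl6*, *Hmgcs1*, *Insig1*, *Idi1* and *Hsd17b7* stay filled on the left of 0 and *Fads1* on the right under all 3.

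Other genes of the same pathways, from a list of 82 of which 77 had a value and 74 were tested, were mixed, and whether more of them rose or fell depended on the scaling. Of the 74, 22 rose on the deposited scale, 27 fell and 25 did not pass, with a median log2 fold change of -0.01, where 17.9% of all tested genes rose and 39.9% fell. With median ratio scaling 36 rose and 12 fell (median 0.14), where 27.9% and 27% of all tested genes did, and with quantile normalization 33 rose and 14 fell (median 0.10), where 26% and 27.8% did. The lists that make up the 74 are read against the same shares. On the deposited scale, in further genes of sterol synthesis and SREBP processing 1 of 9 rose and 4 fell, and in the isoprenoid branch 3 of 10 rose and 4 fell. These counts became 4 and 3, and 4 and 2, with median ratio scaling, and 3 and 3, and 4 and 2, with quantile normalization. In fatty acid synthesis, elongation and desaturation 8 of 21 rose and 7 fell, against 11 and 3 with median ratio scaling and 10 and 4 with quantile normalization. Genes of fatty acid activation and glycerolipid synthesis gave 3 rising and 3 falling of 13, but 7 and 6 rising and 0 falling with these scalings. NADPH supply gave 2 rising and 1 falling of 5, with the highest median of these lists (0.30), and 4 rising and 1 falling with either scaling.

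The 16 genes of sterol uptake, efflux, transport and storage held both genes that were called. *Vldlr*, which encodes a lipoprotein receptor, was at 0.331, 0.305 and 0.272 FPKM in Tyr-L and at 2.95, 3.14 and 3.73 FPKM in Tyr-H, low in every library but without overlap (log2 fold change 3.06, limma adjusted p = 7.77e-07). *Abca1*, which encodes a transporter that exports cholesterol, was at 3.02, 2.69 and 3.07 FPKM in Tyr-L and at 1.33, 1.32 and 1.31 FPKM in Tyr-H, also without overlap (log2 fold change -1.09, limma adjusted p = 3.32e-05). It was called lower on the deposited scale, but it differed by less than 2-fold after median ratio scaling (log2 fold change -0.95) and after quantile normalization (-0.90). In that list 5 genes rose and 8 fell on the deposited scale, 6 rose and 3 fell with median ratio scaling, and 6 rose and 4 fell with quantile normalization.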

How the data were processed

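The 6 libraries had been made from mRNA and sequenced in paired-end mode, and the authors deposited 1 table of FPKM values per library. The submitters' processing notes name Trimmomatic, HISAT2 and the genome build GRCm38.p6. The quantifier, annotation and strand setting are not given in the sources used here. Genes absent from a table were taken as 0. The 35 genes and the other lists were chosen with earlier results of these data known.

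Whole reads were looked for in the lowest steps of FPKM times the longest GENCODE M21 transcript. Of the low values, 25.0% to 27.4% lay within 0.1 of a whole number of the assumed step, and 19.8% to 21.0% of those above 1.5 steps, where evenly spread values would give 20%. Reads and depth were therefore not recovered, and no count test or interval for counting error was computed.

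Genes whose mean over the 6 libraries reached 0.1 FPKM were fitted on log2(FPKM + 0.1) by limma (version 3.58.1, R 4.3.3), using lmFit for the difference of the groups and eBayes with a variance trend (two-sided, Benjamini-Hochberg adjustment over all tested genes). The pseudocount of 0.1 understates changes of low genes. Calls required an adjusted p no larger than 0.05 and a change of 2-fold or more, the thresholds of the study's methods. Each SD is over the 3 FPKM values of a group. Exact permutation tests of 3 libraries against 3 were two-sided, with a smallest p of 0.1. All 35 genes are described, with the value in every library for called genes, regulators and genes that passed and moved by 0.58 or more in log2. A few more library values were added after they were seen. Of the other pathway genes only those called are named.

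Shared exons were taken from GENCODE M21 (20709 of 20788 identifiers found), and near-identical transcripts from BLAST+ 2.17.0 (at least 98% identity over 100 bases). Promoter windows are from RefSeq, and motifs were matched exactly on both strands. Alternatives were pseudocounts of 0.01 and 1 FPKM, no filter, a mean of at least 1 FPKM, 3 other scalings (total of 1000000 FPKM, median ratio, quantile), no variance trend, the replicate number as a block and leaving out each library. Tables were handled in Python 3.11.15 (pandas 2.3.3, numpy 2.4.6, scipy 1.17.1) and drawn with matplotlib 3.10.9.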

Additional observations from a re-analysis of the deposited data

How the results depend on the processing

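Of the 525 values that the 35 genes had under 15 alternatives, 431 kept their direction and their side of the threshold, 58 kept only their direction and lost the threshold, 16 passed it anew and 20 changed sign. *Elovl6* was the 1 gene called lower, and none was called higher, under every alternative. The genes that rose numbered 1 after rescaling to the same total, 8 after median ratio scaling and 5 after quantile normalization, and those that fell 27, 9 and 12. Without the variance trend 2 rose and 15 fell, and 8 of the 25 genes that passed no longer did (*Srebf1*, *Srebf2*, *Mvd*, *Lss*, *Tm7sf2*, *Dhcr7*, *Acaca* and *Elovl1*, adjusted p from 0.0517 to 0.133). The median of the 35 genes was -0.278, -0.0302 and -0.0738 under these 3 scalings. Leaving out 1 library at a time gave 2 to 3 genes that rose, 16 to 22 that fell and a median of -0.22 to -0.15, and 18 of the 25 genes that passed did so whichever library was left out.

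No sign change concerned a value that passed after it. After median ratio scaling the signs turned for *Srebf2* (0.0148), *Scap* (0.0488), *Insig2* (0.0214), *Msmo1* (0.0660), *Ebp* (0.0968), *Sc5d* (0.109) and *Acaca* (0.0232), after quantile normalization for *Ebp* (0.0397) and *Sc5d* (0.0800), and after rescaling to the same total for *Mvk* (-0.0940), *Fasn* (-0.0524), *Me1* (-0.0638), *Scd1* (-0.0545) and *Fads2* (-0.0710). Without 1 library *Mvk* ranged from -0.0388 to 0.0435, *Scd1* from -0.00247 to 0.0611 and *Fads2* from -0.0188 to 0.0732.

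Of the other pathway genes, 2 were called higher with no filter and after rescaling to the same total. The number called lower was 2 with a pseudocount of 0.01 FPKM, 4 after rescaling to the same total, 0 with a pseudocount of 1 FPKM and after median ratio scaling and quantile normalization, and 1 to 2 when 1 library was left out. The cause of these changes was not tested.

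With the replicate number as a block, all 35 values stayed on their side of the threshold. Deviations from the group means correlated at 0.02, 0.01 and -0.08 between libraries with the same number, and not every library correlated best with its own. With 3 libraries per group these correlations cannot show whether equal numbers mark a shared culture or day, which is not stated. Over all tested genes the block gave 1258 calls in place of 1254. Since depth is unknown, what it limits was not measured.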
